A study of Yarrowia lipolytica with 9 samples.

Results

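The yeast Yarrowia lipolytica carried 208 genes whose transcripts stood higher at pH 4.0 than at pH 2.0, and higher again at pH 6.0 than at pH 4.0. They were chosen from 6127 genes (3.39%) by a rule on measured values. The mean of log2(CPM + 1) had to differ by at least 0.5 at each of the 2 steps, and the highest group mean had to reach 10 CPM (read counts scaled to library size, as normalized by the authors). The 2 steps are pH 4.0 minus pH 2.0, called the first step, and pH 6.0 minus pH 4.0, called the second. Because the rule used all 9 libraries and every contrast between the pH values, the steps of these genes are given as a description, with no test of their own.

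The cells were of strain W29, a wild-type isolate, with no altered allele or added agent named, and every group shared the strain, the medium and the time. The cultures grew in bioreactors at a controlled pH of 2.0, 4.0 or 6.0, with 3 bioreactors each (replicates A, B and C). The medium held 50 g/L glucose, 1.7 g/L yeast nitrogen base, 1.5 g/L yeast extract and 1 g/L ammonium sulfate, and cells were taken at hour 50. The study asked how medium pH bears on the making of citric acid and lipid. A library holds 12974822 to 17701766 reads, so 3 reads, taken as the floor, correspond to 0.169 to 0.234 CPM. A library averages over all cells of a culture, so a change in the share of cells that carry a transcript and a change per cell cannot be told apart. A marker of the filamentous cell form, the hyphal growth regulator YALI0B21582g, averaged 39.4, 28.0 and 34.9 CPM at pH 2.0, pH 4.0 and pH 6.0, and its part in the results below was not tested.

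In fungi the acidity of the surroundings is read by a membrane-bound sensing pathway that ends in the zinc finger factor Rim101, called PacC in Aspergillus. Neutral to alkaline conditions lead to a shortened, active form of the factor, which turns on genes used in such media and turns off others. Yarrowia lipolytica secretes different proteases in acidic and in alkaline media, and exports citrate when nitrogen runs short in the presence of sugar. The table gives locus tags with no gene names, and the roles stated here are published assignments of those tags, given as background; most of the 208 genes carry no role here.

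Over the 208 genes the first step had a median of 0.91 on the log2 scale, with quartiles of 0.67 and 1.22 and a range of 0.51 to 5.41. The second had a median of 0.85, with quartiles of 0.65 and 1.30 and a range of 0.51 to 8.03. Over all 6165 genes tested the medians were -0.02 and -0.00326. Read from pH 2.0 to pH 6.0, the whole difference had a median of 1.85, reached at least 2 in 86 genes and at least 3 in 34, and was 9.36 at the most. In 40 genes both steps were at least 1. Of the 5536 genes that met the level, 1054 met the first step and 738 the second, so the 208 were 19.7% of those that met the first and 28.2% of those that met the second.

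**Figure D1:**
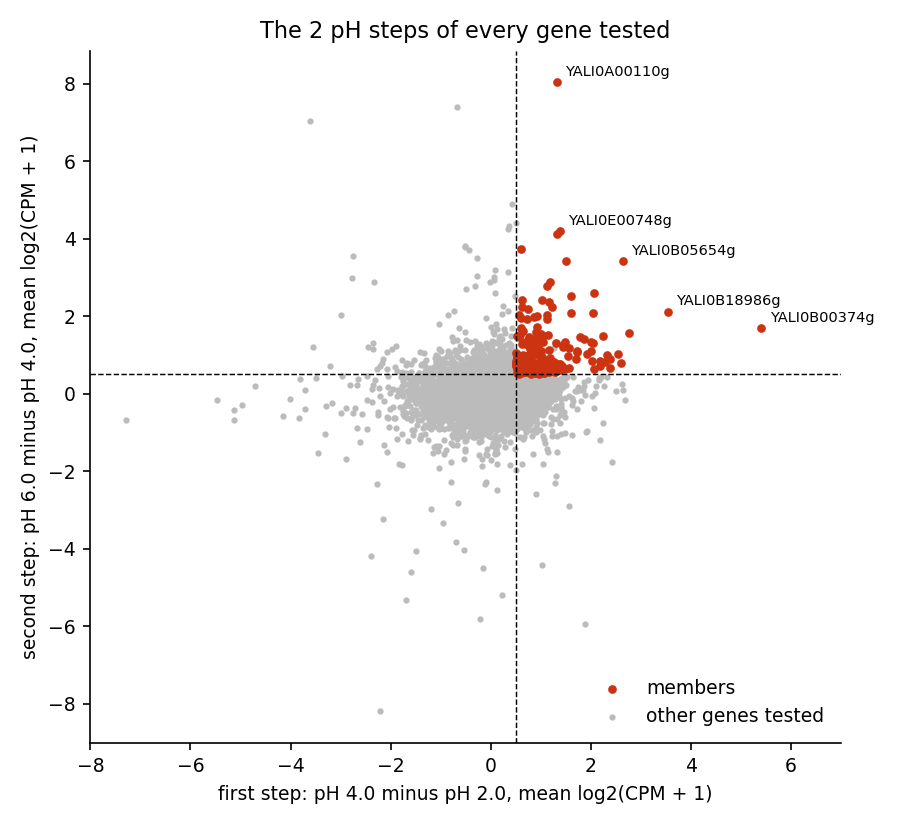
Each point is a gene, with the first step (pH 4.0 minus pH 2.0) across and the second (pH 6.0 minus pH 4.0) up, both as differences of mean log2(CPM + 1). The 208 members, in red, fill the corner above 0.5 on both axes (dashed lines), most of them close to it, with YALI0A00110g far up at 8.03 and YALI0B00374g far right at 5.41.

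By limma, 204 of the 208 genes passed at the first step as higher and 202 at the second, with 198 passing at both (adjusted p under 0.05). Among all 6165 genes tested 30.8% passed as higher at the first step, 25.7% at the second and 9.44% at both. At the first step 1900 of all genes passed as higher and 2007 as lower, and with libraries scaled to equal totals 1267 and 2873 did. Since the members were picked on these same differences, nothing is read from their counts. The edge of the rule ran through a dense region. Just inside it lay YALI0F14025g, with steps of 0.51 and 0.85, and YALI0A20834g, with steps of 0.51 and 0.80. Just outside it lay YALI0E35156g, with steps of 0.50 (0.498 unrounded) and 4.40, and YALI0D17732g, with steps of 0.50 (0.496) and 0.62.

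The pH response factor Rim101 (YALI0B13640g) was itself among the 208. Whether this factor acts on other members was not tested, and its shortened active form was not measured. Its transcript had 184, 178 and 180 CPM at pH 2.0, 276, 251 and 258 CPM at pH 4.0, and 685, 763 and 766 CPM at pH 6.0. The libraries of each pH lay close together and no groups overlapped. The second step, 1.49 on the log2 scale, was the larger, against 0.53 for the first. The first step stood at the edge of the rule, at 0.32 when libraries were scaled to equal totals and 0.34 after quantile normalization, and at 0.49 at the least when single libraries were left out.

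The acid extracellular protease (YALI0B05654g), a secreted enzyme that digests protein outside the cell, had one of the widest ranges. It had 9.74, 6.17 and 11.0 CPM at pH 2.0, 61.6, 78.4 and 44.2 CPM at pH 4.0, and 724, 763 and 485 CPM at pH 6.0. Both steps were large, 2.64 and 3.41, and replicate C was the lowest library at pH 4.0 and at pH 6.0.

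The citrate exporter of the plasma membrane (YALI0D20196g), which carries citrate out of the cell, had 420, 469 and 614 CPM at pH 2.0. It had 790, 1016 and 542 CPM at pH 4.0, and 3122, 2938 and 2739 CPM at pH 6.0. The groups at pH 4.0 and pH 2.0 overlapped, since replicate C at pH 4.0 lay under replicate C at pH 2.0. The first step was 0.61, 0.40 without replicate B of pH 4.0 and 0.86 without replicate C of pH 4.0. It also fell under 0.5 with equal totals, which moved the median first step of all genes from -0.02 to -0.22. The second step, 1.95, had no overlap.

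Mannitol dehydrogenase (YALI0B16192g), which converts between fructose and the sugar alcohol mannitol, had 30.8, 37.9 and 33.6 CPM at pH 2.0. It had 98.3, 99.7 and 121 CPM at pH 4.0, and 562, 608 and 673 CPM at pH 6.0. The 3 groups lay wide apart, with steps of 1.61 and 2.52. Its means were 34.1 ± 3.58, 106 ± 12.5 and 614 ± 56.0 CPM at pH 2.0, pH 4.0 and pH 6.0 (SD, n = 3 each).

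**Figure D2:**
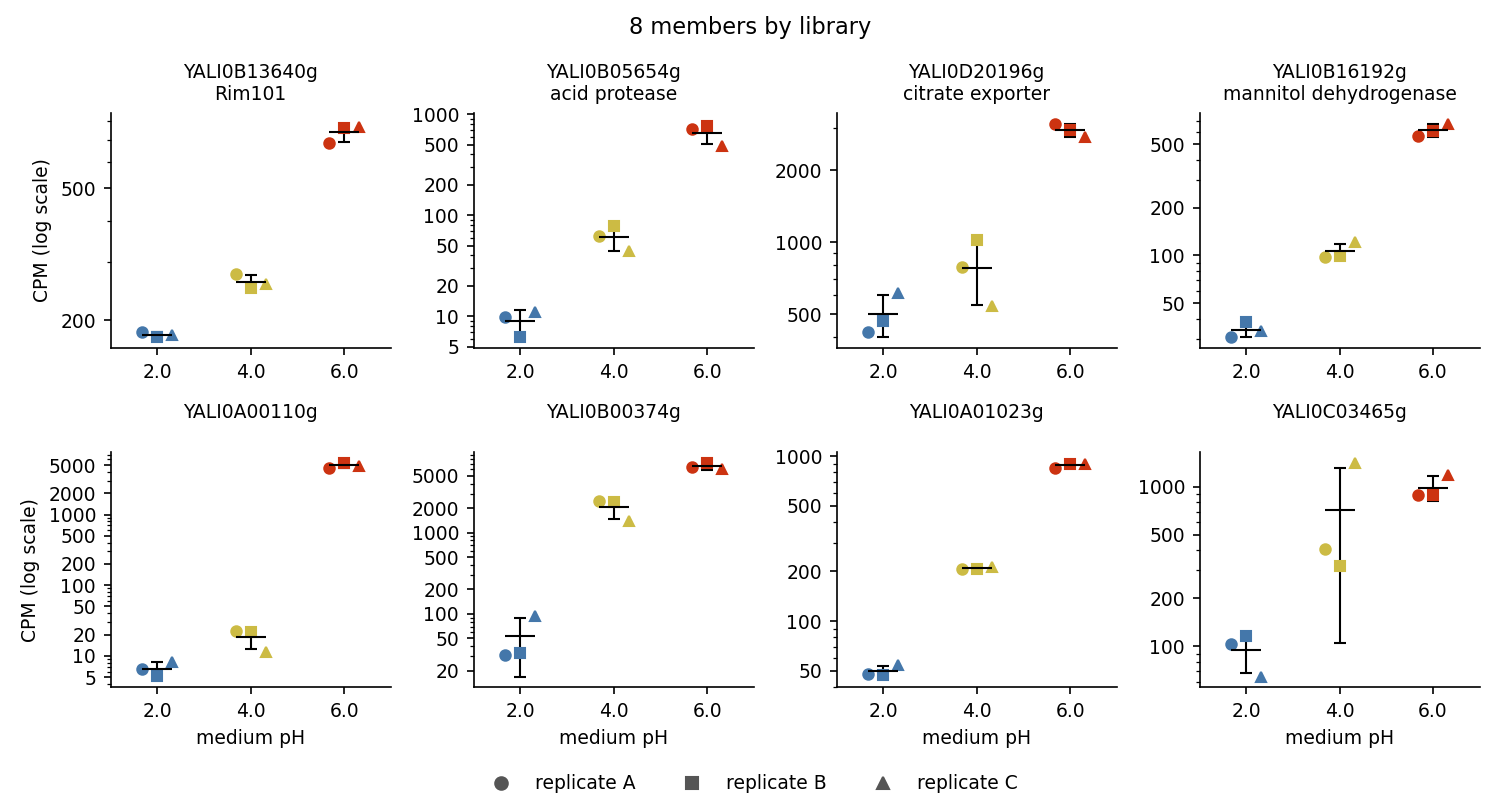
CPM on a log axis in each library of 8 members, by medium pH; symbols mark replicates A, B and C, and bars show the mean and SD (n = 3). Rim101, the acid protease and mannitol dehydrogenase have 3 separate groups, and the citrate exporter overlaps between pH 4.0 and pH 2.0. On the log scale YALI0A00110g gains most at pH 6.0, YALI0B00374g gains most at pH 4.0, and YALI0A01023g climbs evenly. YALI0C03465g has 1 pH 4.0 library at 1409 CPM, above every pH 6.0 library.

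The 208 genes held 4 of 50 measured loci that carry a role in lists of pH response, central carbon, lipid and respiratory genes. The other 46 split: 18 passed as higher and 13 as lower at pH 4.0 against pH 2.0, and 13 as higher and 10 as lower at pH 6.0 against pH 4.0 (limma). Over all genes, members included, 30.8% passed as higher and 32.6% as lower at the first step, and 25.7% and 25.8% at the second. Loci listed without a role here gave further members: YALI0F01606g, YALI0F01650g, YALI0E23474g and YALI0A15488g. Of the 46 loci with a role outside the 208, 9 passed as higher at both steps but with at least 1 step under 0.5. Over all genes, members included, 9.44% passed as higher at both steps.

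The proton pump of the plasma membrane (an ATPase, YALI0B22682g), which keeps the cytosol less acidic than the medium, was among those 9. It averaged 139 CPM at pH 4.0 against 121 CPM at pH 2.0 (log2 0.20, SE 0.07, limma adjusted p = 0.0308), and 184 CPM at pH 6.0 against 139 CPM at pH 4.0 (log2 0.40, adjusted p = 0.00132). The first of these calls was lost under equal totals (-0.00152) and quantile normalization (0.08), and without replicate A (0.15) or B (0.20) of pH 2.0 or replicate B (0.20) or C (0.19) of pH 4.0. The other listed loci of citrate transport and cleavage were not among the 208. The 2 mitochondrial citrate carriers had steps of 0.33 and -0.18 (YALI0F26323g) and of 0.14 and -0.09 (YALI0B10736g). The subunits of ATP-citrate lyase, which splits citrate in the cytosol, had steps of 0.18 and -0.26 (YALI0E34793g) and of 0.03 and -0.22 (YALI0D24431g).

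The 3 listed enzymes of the pentose phosphate pathway, a source of NADPH and pentoses, passed as higher at both steps, as did 9.44% of all genes. Glucose-6-phosphate dehydrogenase (YALI0E22649g), the entry enzyme, averaged 1362 CPM at pH 4.0 against 808 CPM at pH 2.0 (log2 0.76), and 1660 CPM at pH 6.0 (log2 0.28 over pH 4.0). The second call was lost without replicate B of pH 4.0 (0.27), or replicate B (0.29) or C (0.24) of pH 6.0. For 6-phosphogluconate dehydrogenase (YALI0B15598g) the steps were 0.44 and 0.23 and for transketolase (YALI0E06479g) 0.20 and 0.46, with the smaller step lost in 8 and 10 of the 18 alternatives tried. The steadiest of the 9 was YALI0D17534g, listed as a lipid body lipase. It had steps of 0.39 and 0.47 (SE 0.07 each) and kept both calls in all 18. The other 2 listed lipases passed as lower at the first step.

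The lipid and respiratory loci listed with a role here gave no member. Members listed without a role were not assigned to any of these groups, so this does not cover them. Over all genes 30.8% passed as higher and 32.6% as lower at the first step, and 25.7% and 25.8% at the second. Of 6 loci of fatty acid synthesis and desaturation, 3 passed as higher at each step and 2 at both, and none passed as lower. The fatty acid synthase subunit YALI0B19382g lost its first call under equal totals (0.10), under quantile normalization (0.00500), and without replicate B of pH 2.0 (0.23) or replicate C of pH 4.0 (0.23). The delta-12 desaturase YALI0B10153g lost its second call without replicate B of pH 4.0 (0.36), or replicate A (0.34) or B (0.36) of pH 6.0. Of 6 loci of storage lipid synthesis, 2 passed as higher and 2 as lower at the first step, and 2 as higher at the second. Of 9 loci of beta-oxidation and the peroxisome, 2 passed as higher and 3 as lower at the first step, and 2 as higher and 4 as lower at the second. The 2 that were higher at the second step were also higher at the first. The acyl-CoA oxidase YALI0C23859g lost its second call under quantile normalization (0.32), and without replicate A (0.32) or B (0.38) of pH 4.0 or replicate B (0.43) or C (0.33) of pH 6.0. The multifunctional enzyme YALI0E15378g lost its second call under quantile normalization (0.15). Of 8 loci of the tricarboxylic acid cycle, the glyoxylate cycle and anaplerosis, 3 passed as higher and 3 as lower at the first step, and 1 as higher and 3 as lower at the second. The 2 loci of the respiratory bypass, which pass electrons on without pumping protons, both passed as higher at the first step and neither passed at the second (limma).

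The genes with the widest whole difference were led by a pair without a role here. YALI0A00110g had 6.49, 5.16 and 8.21 CPM at pH 2.0, 22.4, 21.8 and 11.5 CPM at pH 4.0, and 4566, 5350 and 4927 CPM at pH 6.0. No groups overlapped, and the second step of 8.03 was the largest rise at that step among all genes tested. YALI0B00374g had 31.1, 33.3 and 94.8 CPM at pH 2.0, 2477, 2380 and 1384 CPM at pH 4.0, and 6328, 7160 and 6053 CPM at pH 6.0. Here the first step of 5.41 was the largest rise at that step among all genes tested and the second was 1.69; replicate C was the highest library at pH 2.0 and the lowest at pH 4.0.

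The acid protease came next, followed by 2 genes that were nearly silent at pH 2.0. YALI0B18986g had 0.123, 0.814 and 0.394 CPM at pH 2.0, 17.6, 16.1 and 13.3 CPM at pH 4.0, and 75.7, 75.8 and 61.5 CPM at pH 6.0. YALI0E00748g had 0.184, 0.0678 and 0.45 CPM at pH 2.0, 2.23, 2.12 and 2.26 CPM at pH 4.0, and 61.5, 52.2 and 58.6 CPM at pH 6.0. Both had pH 2.0 libraries at or under the floor of 3 reads, and their first steps depended on the pseudocount. With pseudocounts of 0.25 and 5 the first step of YALI0B18986g was 4.64 and 1.92, against 3.55, and that of YALI0E00748g was 2.42 and 0.46, against 1.39. Among the 208, 7 genes had at least 1 library at pH 2.0 at or under the floor, and 45 averaged under 10 CPM there. These 45 had a median whole difference of 2.94, against 1.67 for the other 163. The rule asks for 10 CPM in the highest group, so a gene far under that level at pH 2.0 needs a wide difference. Genes nearer to it did not, such as YALI0E18744g, with 9.04 CPM at pH 2.0 and a whole difference of 1.44.

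Levels in CPM are not divided by gene length, so the genes with most reads are not necessarily those with most transcripts. At pH 6.0 YALI0B00374g and YALI0A00110g had the most reads. YALI0F29909g followed, with 1029, 1382 and 1220 CPM at pH 2.0, 2962, 2967 and 2753 CPM at pH 4.0, and 4236, 4442 and 4654 CPM at pH 6.0. Its first step, 1.27, was the larger, against 0.62 for the second, and its groups were apart. After the citrate exporter came YALI0A15488g, with 791, 1039 and 1054 CPM at pH 2.0, 1688, 1783 and 1231 CPM at pH 4.0, and 2825, 2898 and 2893 CPM at pH 6.0. Its steps of 0.70 and 0.89 were near one another, and the first fell just under 0.5 with equal totals. YALI0E23474g had lower levels and a larger first step, with means of 49.2, 116 and 191 CPM at pH 2.0, pH 4.0 and pH 6.0 and steps of 1.22 and 0.74.

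The share of the whole log2 difference that fell to the first step ranged from 14.1% to 78.2%, with a median of 50.2%. The first step was the larger in 106 genes and the second in 102. In 162 genes neither step was more than 2 times the other; in 21 the first was more than 2 times the second, and in 25 the reverse held. The rule itself draws this share toward the middle, because both steps had to reach 0.5; 846 further genes met the level and the first step alone, and 530 the level and the second step alone.

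The early end held YALI0E19030g, YALI0C03465g and YALI0E16973g. YALI0E16973g had 1.65, 2.10 and 2.08 CPM at pH 2.0, 10.6, 11.9 and 11.2 CPM at pH 4.0, and 15.2, 20.6 and 18.8 CPM at pH 6.0, with steps of 2.06 and 0.64 and no overlap. The other 2 moved with single libraries. YALI0C03465g had 104, 117 and 64.7 CPM at pH 2.0, 406, 319 and 1409 CPM at pH 4.0, and 891, 883 and 1191 CPM at pH 6.0. Without replicate C of pH 4.0 its steps were 1.95 and 1.44 in place of 2.61 and 0.78, and without replicate B of pH 4.0 the second was 0.37. YALI0E19030g had 32.8, 39.9 and 78.7 CPM at pH 4.0, and its second step was 0.66, or 1.03 without replicate C of pH 4.0 and 0.37 without replicate C of pH 6.0.

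The late end held YALI0E26125g, YALI0A00110g and YALI0F26983g. YALI0E26125g had 1.10, 1.36 and 1.35 CPM at pH 2.0, 2.76, 2.19 and 2.49 CPM at pH 4.0, and 37.4, 46.6 and 53.4 CPM at pH 6.0. Its steps were 0.61 and 3.74, and with a pseudocount of 5 the first was 0.25. YALI0F26983g had means of 9.92, 15.5 and 86.5 CPM at pH 2.0, pH 4.0 and pH 6.0, with steps of 0.64 and 2.41. The most even climbs of at least 2 in all were YALI0D02761g, with steps of 1.30 and 1.30, YALI0A01023g, with 2.05 and 2.07, and YALI0B17160g, with 1.17 and 1.11. YALI0A01023g was also among the tightest, with 48.0, 47.1 and 53.8 CPM at pH 2.0, 206, 206 and 214 CPM at pH 4.0, and 850, 903 and 896 CPM at pH 6.0.

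**Figure D3:**
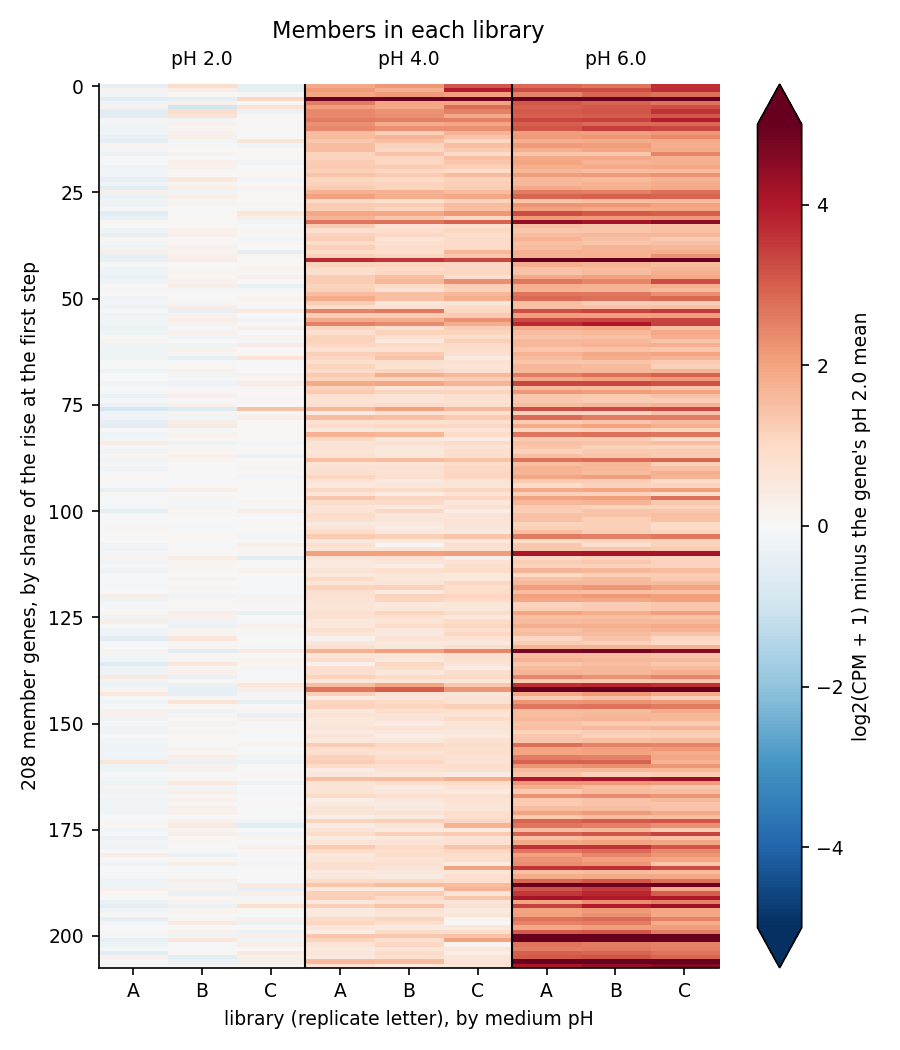
Each row is 1 of the 208 members and each column a library; colour is log2(CPM + 1) minus the gene's own pH 2.0 mean, saturated at 5. Rows run from the largest share of the difference at the first step (78.2%, top) to the smallest (14.1%, bottom), and toward the bottom the pH 4.0 columns are pale beside the pH 6.0 columns.

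Summed over the 208 genes, the reads came to 21486 ± 2400 CPM at pH 2.0, 44033 ± 741 CPM at pH 4.0 and 90929 ± 1358 CPM at pH 6.0 (SD, n = 3 each). The factor was 2.05 for pH 4.0 over pH 2.0 and 2.07 for pH 6.0 over pH 4.0. As a share of all reads in a library, which does not depend on the scaling, the genes made up 2.37% ± 0.258, 4.21% ± 0.109 and 8.63% ± 0.106. On that measure the factors were 1.78 and 2.05, so the first factor depended on the scaling. YALI0B00374g and YALI0A00110g together held between 0.163% and 0.468% of the sum in the pH 2.0 libraries, between 3.20% and 5.57% in those of pH 4.0, and between 12.1% and 13.5% in those of pH 6.0. Without them the factors of the summed CPM were 1.96 and 1.90.

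**Figure D4:**
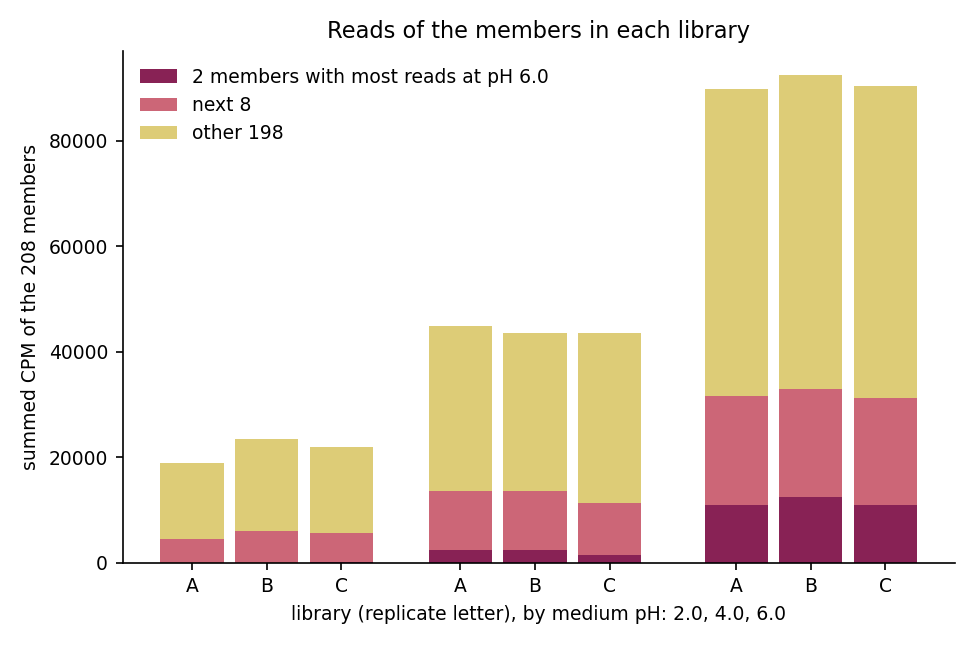
Stacked bars give the summed CPM of the 208 members in each library, split into the 2 with most reads at pH 6.0, the next 8 and the other 198. The sums lie between 18864 and 23573 CPM at pH 2.0, between 43573 and 44888 CPM at pH 4.0, and between 89915 and 92473 CPM at pH 6.0, and most of each bar belongs to the other 198.

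Replicates of the 208 genes spread most at pH 2.0. The SD of log2(CPM + 1) within a pH had a median over the 208 genes of 0.20 at pH 2.0, 0.16 at pH 4.0 and 0.10 at pH 6.0. Over the 5536 genes that met the level it was 0.10, 0.13 and 0.09, and so largest at pH 4.0. At pH 2.0 replicate A was the lowest library in 135 of the 208 genes, or 64.9%, against 41.5% of the genes that met the level. Its summed CPM was 18864, against 23573 in replicate B and 22022 in replicate C. At pH 4.0 replicate C was the highest library in 95 genes and the lowest in 65. The smaller of a gene's steps exceeded 2 times its largest within-pH SD in 161 of the 208 genes, and in 4 it lay under that SD. Since the rule asks for steps of at least 0.5, these counts only describe the members. The share over all genes was not computed.

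In 192 of the 208 genes the 3 groups were apart, with every pH 4.0 library above every pH 2.0 library and every pH 6.0 library above every pH 4.0 library; this held for 11.7% of all 6127 genes. At the first step alone the counts were 196 members and 32.4% of all genes, and at the second 204 members and 31.9%. The rule used these differences, so the counts only describe the members. Of the 12 genes that overlapped at the first step, 8 had replicate C of pH 4.0 under a pH 2.0 library, among them the citrate exporter. YALI0F01606g overlapped through replicate B of pH 2.0, with 57.9, 103 and 79.1 CPM at pH 4.0 against 31.6, 73.8 and 53.6 CPM at pH 2.0. YALI0F01650g did so as well, with 180, 255 and 260 CPM at pH 4.0 against 108, 230 and 154 CPM at pH 2.0. Without replicate A of pH 2.0 the first steps of these genes were 0.30 and 0.28, in place of 0.63 and 0.54.

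Applied again without each library in turn, the rule picked 192 to 222 genes, and 147 of the 208 were picked every time. Leaving out replicate B of pH 4.0 lost 28 of the 208, replicate C of pH 4.0 lost 21 and replicate A of pH 2.0 lost 18. Leaving out any other library lost 2 to 15.

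The steps were also read with the libraries of 1 replicate letter kept out of the choice. The rule was applied to the libraries of the other letters, and each step was the difference between 2 single libraries of the letter left out. The thresholds had been set with all 9 libraries known, and 187, 185 and 187 of the genes chosen without A, B and C were among the 208, so these values are a description and not independent support. With the letter A held out, 210 genes were chosen, and 207 of them (98.6%) had both steps above 0 in the A libraries, against 22.9% of all genes that met the level. With B held out the shares were 98.5% of 205 genes, against 27.5%, and with C 94.5% of 218 genes, against 26.3%. Both steps reached 0.5 in 71.9%, 66.8% and 63.8% of the chosen genes with A, B and C held out, against 3.65%, 3.81% and 3.57% of all genes that met the level. The median steps in the held-out A libraries were 1.09 and 0.84, against 0.85 and 0.83 in the libraries used to choose. In B they were 0.72 and 0.94 against 0.92 and 0.84, and in C 0.93 and 0.82 against 0.90 and 0.89.

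**Figure D5:**
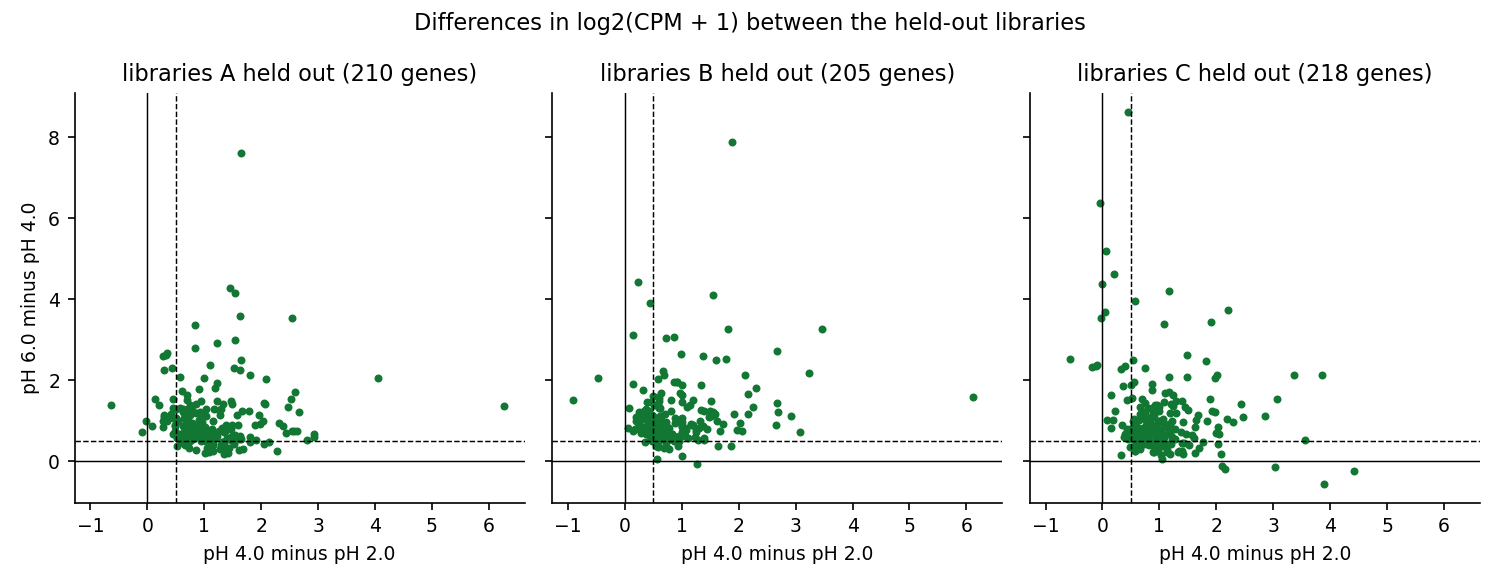
Genes picked by the rule in the libraries of 2 letters, plotted by their 2 steps in log2(CPM + 1) between the single libraries of the third letter; dashed lines mark 0.5. Nearly all points lie above 0 on both axes, and the C libraries have the most points with a first step near or under 0 and a large second step.

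The locus tags also give a position, since their letter names 1 of the 6 chromosomes and their number runs along it. The 208 genes were spread over all 6, from 2.92% of the genes of chromosome E to 4.11% of those of chromosome B. Among the 20 measured tags nearest each chromosome end lay 12 of the 208 (5.77%), against 240 of all 6127 genes (3.92%). The 12 included the genes with the widest difference: YALI0A00110g has the first measured tag of chromosome A, and YALI0B00374g lies 8 tags from the first of chromosome B. The others near the left ends were YALI0B00132g, YALI0C00187g, YALI0C00451g, YALI0E00110g and YALI0E00462g, and near the right ends YALI0A21307g, YALI0A21373g, YALI0A21439g, YALI0B23496g and YALI0E34771g. YALI0C00451g averaged 8.76 ± 2.84 CPM at pH 2.0 and 26.0 ± 1.75 CPM at pH 4.0 (SD, n = 3 each), and had 298, 274 and 289 CPM at pH 6.0, with steps of 1.50 and 3.42. The whole difference was at least 3 in 5 of the 12 and in 29 of the other 196, with medians of 2.55 and 1.82. The rule selected on these differences, so the values only describe the members, and the same measure over all genes near an end was not computed. Whether position near an end bears on membership or on the difference was not tested.

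Of 6121 pairs of neighbouring measured tags, 5 held 2 members, and no 3 in a row were found. These pairs took in 10 of the 208 genes (4.81%). Members a few tags apart were not counted, such as YALI0F01606g, YALI0F01650g and YALI0F01672g, 57, 59 and 60 tags from the end of chromosome F. Whether members lie closer together than other genes was not tested. The pairs were named after their values had been seen. YALI0D09333g and YALI0D09339g had nearly the same steps, 1.03 and 0.68 against 1.01 and 0.60, and their tag numbers are unusually close. Whether reads were counted by strand is not given in the sources used here, so values of neighbouring or overlapping genes are uncertain. YALI0E23606g and YALI0E23628g had steps of 0.93 and 1.99 and of 0.88 and 1.36. In YALI0C22341g and YALI0C22363g they were 0.92 and 0.52 and 0.66 and 1.61, so that the larger step differed between the neighbours. In YALI0D23925g and YALI0D23947g they were 0.86 and 0.66 and 0.51 and 0.72, and in YALI0F01650g and YALI0F01672g 0.54 and 0.65 and 1.74 and 1.06.

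The mirrored rule, with both steps at -0.5 or below, picked 187 genes. Their whole differences had a median of -1.73, against 1.85 for the 208. Their summed CPM was 39701 ± 3925 at pH 2.0, 17655 ± 1233 at pH 4.0 and 5621 ± 183 at pH 6.0 (SD, n = 3 each). At pH 2.0 the reads of these falling genes outnumbered those of the 208 in each library, and at pH 4.0 and pH 6.0 they were outnumbered. They also held 5 neighbouring pairs, and 6 of them (3.21%) lay among the 20 tags nearest an end.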

How the data were processed

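Strand-specific RNA libraries of 9 bioreactor cultures were read for 101 cycles, per the labels' protocols. Per the file headers, the deposited values are a normalized signal: counts per 1000000 reads (CPM), for which the authors used effective library sizes from edgeR. The submitters' processing notes name edgeR, HTSeq, TopHat2 2.0.10, Trimmomatic 0.30 and bcl2fastq 1.8.4; roles, settings, build and annotation: not given in the sources used here. All values (100%, tolerance 0.01 reads) were whole multiples of 1 read, so whole reads could be recovered. A floor of 3 reads covers counting error only.

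The table has 6170 rows, none matched by the 8689 genes of the reference table. The 6165 rows reaching 1 CPM in 3 or more libraries were tested in 1 fit over the 9 libraries, by limma 3.58.1 under R 4.3.3, on log2(CPM + 1) with a trended prior variance; adjusted p-values are two-sided Benjamini-Hochberg values. The added 1 understates fold changes at low levels. The 187 mirrored genes and all counts were computed with pandas 2.3.3. The scripts were tested on simulated data. Replicates differed by more than counting noise (chi-square 8.75 to 55.0 per degree of freedom).

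The members and lists were chosen with earlier results of these data known. Named were listed loci, the 5 widest differences, the 5 highest at pH 6.0, 3 early, 3 late and 3 even genes, and the 4 at the edge. Alternatives were pseudocounts, filters, scalings, thresholds, a replicate block, edgeR 4.0.16 and DESeq2 1.42.0 on recovered reads, and leaving out libraries.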

Additional observations from a re-analysis of the deposited data

How the results depend on the processing

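The number of genes that met the rule was 208. It was 562 with steps of at least 0.25 and 40 with steps of at least 1. It was 214 and 180 with pseudocounts of 0.25 and 5, and 225 and 163 with levels of at least 1 and 50 CPM. Scaling to equal totals, which moved the median first step of all genes from -0.02 to -0.22, left 146 genes, all among the 208. Quantile normalization picked 218, of which 167 were among the 208. Leaving out single libraries, or the 3 libraries of a letter, gave 192 to 222.

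With the same 208 genes, the median first step was 0.71 under equal totals. The median second step was 0.78 with a pseudocount of 5 and 0.78 after quantile normalization, and 0.83 to 0.91 without single libraries. Under equal totals the summed CPM was 23756 at pH 2.0, 42172 at pH 4.0 and 86526 at pH 6.0; after quantile normalization it was 23701, 42238 and 85383. The factors were then 1.78 and 2.05 under equal totals and 1.78 and 2.02 after quantile normalization, in place of 2.05 and 2.07. Without single libraries the pH 2.0 sum lay between 20443 and 22797, the pH 4.0 sum between 43606 and 44263, and the pH 6.0 sum between 90157 and 91436. A pseudocount does not enter a sum, so that alternative gave none.

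Over all genes 3907 passed at the first step and 3177 at the second, 3557 to 3847 and 2617 to 3363 without single libraries. Of the first, 48.6% were higher, and 30.6% under equal totals. On recovered reads edgeR passed 3915 and 3181 genes and DESeq2 3910 and 3234. With the replicate block the counts were 3853 and 3106. The letters do not pair the libraries: same-letter deviations correlated at r = -0.20 to 0.27, and 2 of 9 libraries correlated best with their own letter. Under equal totals the first steps of the proton ATPase YALI0B22682g (-0.00152) and transketolase YALI0E06479g (-0.00983) turned, with adjusted p = 0.987 and 0.908 by limma; the cause was not tested. First steps of genes of low level at pH 2.0 moved with the pseudocount. With pseudocounts of 0.25 and 5 that of YALI0E16973g (mean 1.95 CPM at pH 2.0) was 2.40 and 1.23, in place of 2.06. That of YALI0A00110g (6.62 CPM) was 1.42 and 0.99, in place of 1.32.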

Other observations

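Beside the 208 genes, 17 more met both steps but stayed under 10 CPM in every group. Of the 43 rows outside the rule's identifiers, 1 met both steps and the level: YALI0B14567r, whose tag ends in r in place of g, had 5.64, 6.58 and 7.20 CPM at pH 2.0, 21.2, 18.9 and 16.4 CPM at pH 4.0, and 30.4, 32.4 and 26.2 CPM at pH 6.0. The row was chosen after its values had been seen. Among the genes that met the level, 126 met the first step and then had a second step of -0.5 or below.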
